A study of Mus musculus with 8 samples.

Results

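The genes described here are 10 members of the pre-B cell receptor and its proximal signalling chain, *Igll1*, *Vpreb1*, *Vpreb2*, *Vpreb3*, *Cd79a*, *Cd79b*, *Blnk*, *Syk*, *Lyn* and *Blk*, taken by name from 21755 protein-coding genes on chromosomes 1 to 19 and X of the mouse genome. They were chosen for their function and not for any measured value, though earlier results of these data were known at the time. The measurement is 5-hydroxymethylcytosine (5-hmC), the oxidised form of methylcytosine that TET enzymes make, mapped by hMeDIP-seq, an immunoprecipitation of sheared DNA with a 5-hmC antibody followed by sequencing. Each gene was read over a window of its body with 5 kb on each side.

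The 4 libraries came from pro-B cells sorted as B220+CD43+IgM- from the bone marrow of C57BL/6 mice 4 to 6 weeks old. The 2 HDAC7-deficient libraries were from Hdac7 fl/- mice with mb1-cre, in which Cre is driven from the *Cd79a* locus and removes the floxed *Hdac7* copy from the pro-B stage on. The 2 wild-type libraries were from Hdac7 +/- littermates, so both groups lack 1 germline copy of *Hdac7*. Whether the littermates carried mb1-cre, and whether the 2 libraries of a group came from separate animals or pools, is not given in the sources used here, so the spread between them may be technical. The files of this series hold peak positions alone, and expression data were not analysed here, so neither the loss of *Hdac7* nor the sorted cell type could be checked against expression.

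The pre-B cell receptor is a cell-surface complex that a developing B cell assembles once it has made a heavy chain. The heavy chain pairs with a surrogate light chain, made of lambda5 (*Igll1*) and VpreB (*Vpreb1* and *Vpreb2*), and signals through the Igα and Igβ chains (*Cd79a* and *Cd79b*). The Src-family kinases Lyn and Blk phosphorylate those chains, Syk docks on them, and the adaptor Blnk carries the signal on, which drives proliferation and passage to the pre-B stage. 5-hmC lies mostly at CpG dinucleotides, and in many tissues it is found over the bodies and enhancers of active genes.

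The lists held between 1305200 and 1414862 peaks, which covered between 229967837 and 273728392 bases. They carry no height or read count, so the depth of each library is unknown. The peak number of each chromosome was divided by the library's own peak number on chromosomes 1 to 13. So scaled, HDAC7-deficient library 2 exceeded the mean of the other 3 libraries on each of chromosomes 14 to 19. The ratio was 1.09 to 1.14, against 0.970 to 1.02 on chromosomes 1 to 13. *Blk* on chromosome 14, *Igll1*, *Vpreb1* and *Vpreb2* on chromosome 16 and *Blnk* on chromosome 19 lie in the raised stretch. Over the windows the libraries did not sort by genotype. The Jaccard index, the shared bases over all covered bases, was 0.248 for the wild-type pair and 0.243 for the HDAC7-deficient pair, and was highest, at 0.289, between wild-type 1 and HDAC7-deficient 1.

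On average over the 4 libraries the receptor genes and *Blnk* were among the more densely covered protein-coding genes, and the kinases ranked lower. The split did not hold in each library, since in wild-type 1 *Syk* (percentile 94.0) and *Lyn* (84.3) ranked above *Vpreb1* (81.6) among genes of like length. The mean share of the window under peaks over the 4 libraries was 25% for *Igll1*, 23.1% for *Cd79a*, 21.4% for *Cd79b*, 21.2% for *Vpreb3*, 20.5% for *Vpreb1*, 17.9% for *Blnk*, 17.4% for *Vpreb2*, and 11.9% for *Blk* and *Syk*, with 11.0% for *Lyn* the lowest. Each gene was ranked among the protein-coding genes no more than 25% longer or shorter than itself, between 517 and 2611 genes. By the mean percentile over libraries the order was *Igll1* (98.1), *Cd79a* (97.2), *Blnk* (97.1), *Vpreb3* (96.2), *Cd79b* (94.0), *Vpreb1* (93.2), *Vpreb2* (90.5), *Blk* (73.1), *Syk* (69.3) and *Lyn* (65.3). The ranges over libraries overlapped between all neighbours in this order. The percentile of *Syk* ran from 20.8 in wild-type 2 to 94.0 in wild-type 1, and that of *Igll1* from 96.4 to 100 across the libraries.

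**Figure D1:**
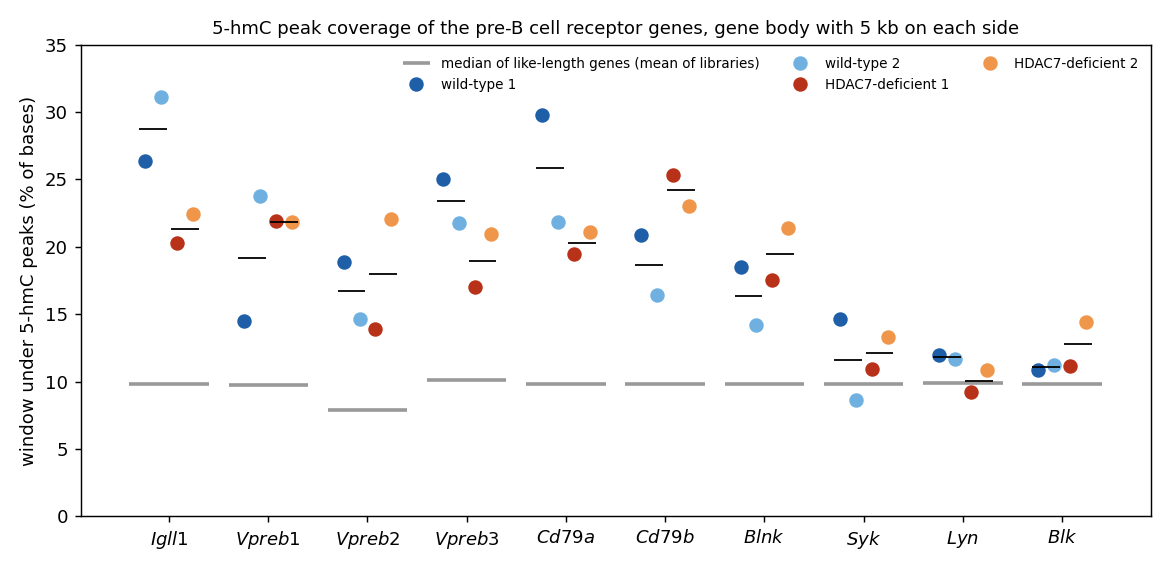
Share of each gene's window (gene body with 5 kb on each side) under 5-hmC peaks, in percent of bases, with 1 point per library. Black lines are at the mean of each genotype. Grey lines are at the median of like-length protein-coding genes, averaged over the libraries. The 7 genes from *Igll1* to *Blnk* lie above the grey line in every library, and *Syk* and *Lyn* lie on both sides of it.

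The median percentile over the 10 genes was 95.7 in wild-type 1, 86.6 in wild-type 2, 94.1 in HDAC7-deficient 1 and 96.5 in HDAC7-deficient 2. The rank of the group was high in both genotypes, and wild-type 2 was the lowest. Without flanks the mean of the 4 medians fell from 93.2 to 84.2. The 32 other genes of the pathway named below ranked high as well, with a median percentile of 90.4, 81.2, 89.1 and 82.4 in the same order of libraries. A high rank was not particular to the 10 genes.

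**Figure D2:**
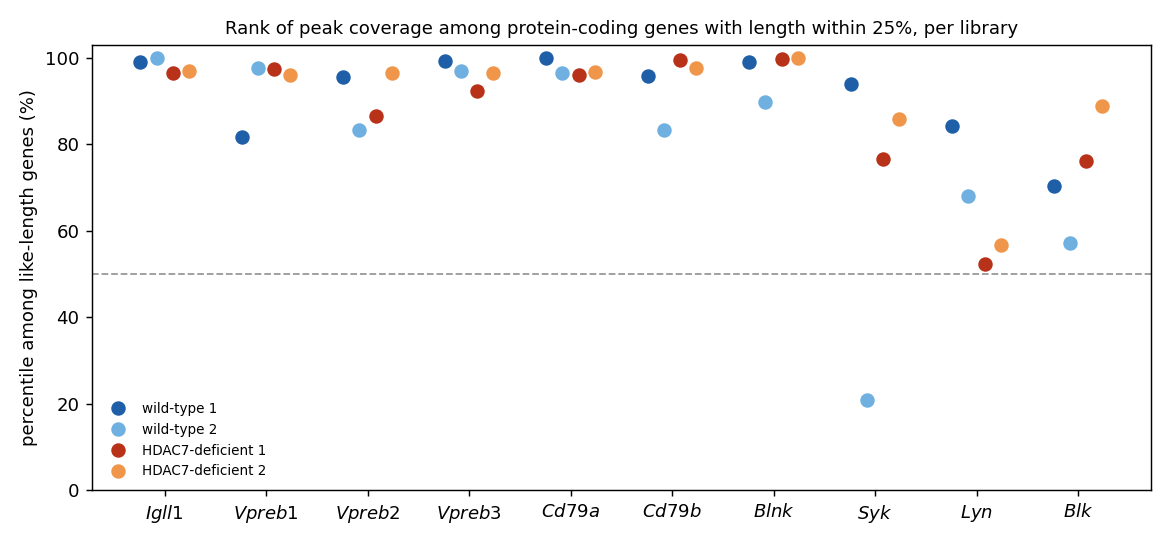
Percentile of each gene's covered share among protein-coding genes with a length within 25% of its own, with 1 point per library and a dashed line at 50. Of the 10 genes, 9 lie above the line in all 4 libraries, and *Syk* falls to 20.8 in wild-type 2.

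Of the parts of the windows, the stretch around the start was the most densely covered in 3 libraries, and in HDAC7-deficient 1 the upstream flank was covered slightly more. The 2 kb centred on the annotated starts of the 10 genes were covered over 24.7%, 20.5%, 20.2% and 24.6% of their bases in wild-type 1 and 2 and HDAC7-deficient 1 and 2. The same window over all protein-coding genes was covered over 10.1%, 11.4%, 10% and 10.1%. Each genotype held 1 library of the higher and 1 of the lower pair of values, so the groups overlapped. The 5 kb upstream of the genes were covered over 19.7% to 20.8%, the exons over 13% to 17.3%, the introns over 11.6% to 14.4% and the 5 kb downstream over 13.9% to 18.2%. A peak lay within 1 kb of the start in 10, 9, 8 and 9 of the 10 genes in the same order of libraries. Of all protein-coding genes, 70.0%, 70.3%, 72.2% and 65.7% had a peak there.

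The windows of *Igll1* and *Vpreb1* share 5583 bp, so sums were taken over 9 merged windows of 426298 bp. They held 370 and 297 peaks in the wild-type against 348 and 362 in the HDAC7-deficient libraries. The ratio of the means was 1.06 ± 0.167 (SD, n = 2 per genotype; two-sided exact permutation test p = 1). Bases under peaks were 65705 and 56131 in the wild-type against 55666 and 66266 in the HDAC7-deficient libraries, a ratio of 1.00 ± 0.166 (SD, n = 2 per genotype; exact permutation p = 1). The groups overlapped in both measures, and the 2 wild-type libraries differed from each other by more than the genotype means did. With 2 libraries against 2 the smallest p this test allows is 0.333, so no value here could pass a threshold of 0.05. A gene is therefore called higher or lower where its 2 HDAC7-deficient libraries both lie above or both below the 2 wild-type libraries, and the share of all protein-coding genes called the same way is given as the background.

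By the number of peaks, 3 of the 10 genes were called higher in HDAC7-deficient cells, *Vpreb1*, *Blnk* and *Blk*, against a background of 12%. No gene was called lower, against 10.8%. By peak bases 1 gene, *Cd79b*, was called higher against a background of 10%, and 4 genes, *Igll1*, *Vpreb3*, *Cd79a* and *Lyn*, were called lower against 17.1%. No gene was called by both measures. For each of these calls the exact permutation p was 0.333, which became 1 for peak number and 0.667 for peak bases after Benjamini-Hochberg adjustment over the 10 genes. The median ratio of peak bases was 1.06 over the 10 genes and 0.967 over all protein-coding genes. All 3 genes called by peak number lie on chromosomes 14 to 19, and they were called as well without HDAC7-deficient library 2 and after scaling each library to 1 total on the gene's chromosome.

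The same reading was made of 5 parts of each window, by peak bases, after the windows as a whole had been counted. In the 5 kb upstream 3 of 10 genes were called higher (*Vpreb1*, *Cd79a* and *Blk*) against a background of 13.3%, and 2 lower (*Igll1* and *Syk*) against 16.8%. Within 1 kb of the start *Syk* was called higher against 11.1% and *Blnk* lower against 14.1%. In the exons *Blk* was called higher against 11.9%, and *Igll1* and *Cd79a* lower against 14.3%. In the introns *Cd79b* was called higher against 9.57%, and *Vpreb3* and *Lyn* lower against 15%. In the 5 kb downstream *Cd79b* and *Blnk* were called higher against 13.2%, and *Cd79a* lower against 16.4%. In total 8 of the 50 gene parts were called higher and 8 lower, close to the background of all genes, so the parts described below are places where the libraries separated and not an excess over other genes.

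*Igll1* (ENSMUSG00000075370) lies on the minus strand of chromosome 16, at 16860671 to 16863985, and encodes lambda5, the part of the surrogate light chain that binds the heavy chain. Its window held 3509 and 4146 peak bases in the wild-type libraries against 2698 and 2984 in the HDAC7-deficient libraries. Both HDAC7-deficient values lay below both wild-type values, a ratio of 0.742 ± 0.102 (SD, n = 2 per genotype; exact permutation p = 0.333). The number of peaks overlapped, at 17 and 16 in wild-type against 21 and 15 in HDAC7-deficient cells. The HDAC7-deficient peaks were narrower, on average 128 and 199 bp against 206 and 259 bp within the window. HDAC7-deficient 1 also had the lowest median peak width over the whole genome. The ratio of peak number, 1.09, was 0.625 without flanks, with overlap, and the number was called lower with peaks of at least 200 bp alone (0.688) and without HDAC7-deficient 1 (0.909) and higher without HDAC7-deficient 2 (1.27). The third exon, 464 bp that encode the constant-region-like part of lambda5, had 181 and 301 bases under peaks in the wild-type libraries and 0 in both HDAC7-deficient libraries. This exon was singled out after its values were seen. Over the gene body alone the ratio was 0.686, but the groups then overlapped, as they did with flanks of 2 kb.

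*Vpreb1* (ENSMUSG00000059305), 4417 bp from *Igll1* on the same strand at 16868403 to 16870843, encodes the V-like part of the surrogate light chain. It had 9 and 10 peaks in the wild-type against 17 and 12 in the HDAC7-deficient libraries, a ratio of 1.53 ± 0.389 (SD, n = 2 per genotype; exact permutation p = 0.333). Its peak bases overlapped between genotypes, with 1801 and 2962 in wild-type against 2723 and 2714 in HDAC7-deficient cells. Their ratio was 1.14, and 0.708 without flanks, 0.832 with flanks of 2 kb and 0.862 with flanks of 10 kb. It was 0.960 with peaks of at least 200 bp alone, 1.14 with neighbouring peaks joined and 1.10 after scaling per chromosome. Wild-type 1 was the lowest library by both measures. The call by peak number was lost without flanks and with peaks of at least 200 bp alone. The upstream flank held 326 and 584 peak bases in wild-type against 1070 and 1266 in HDAC7-deficient cells, without overlap, while the exons held 314 and 918 against 411 and 192 and overlapped.

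Part of that flank is a region with a peak in both HDAC7-deficient libraries and in neither wild-type library, here called gained. The RefSeq promoter window of *Vpreb1* (chr16:16869206-16869505) lies inside the annotated gene, so the region is farther upstream of the RefSeq start than of the outermost start. It spans chr16:16872631-16873031, at -2188 to -1788 bp from the outermost annotated start, and the widest peaks in it were 360 bp and 347 bp. It is shown because it was the second widest gained region in the 10 windows. The 118 bases below it are the coding part of the longest stretch in the window that lay under a peak in all 4 libraries, in the last exon of *Vpreb1* (chr16:16868599-16868716). That stretch also falls in the upstream flank of *Igll1*. Both are written 5′ to 3′ on the minus strand of GRCm38, with each CpG in capitals, and the gained region is represented by its central 300 bases (chr16:16872681-16872980).
Vpreb1 gained upstream region: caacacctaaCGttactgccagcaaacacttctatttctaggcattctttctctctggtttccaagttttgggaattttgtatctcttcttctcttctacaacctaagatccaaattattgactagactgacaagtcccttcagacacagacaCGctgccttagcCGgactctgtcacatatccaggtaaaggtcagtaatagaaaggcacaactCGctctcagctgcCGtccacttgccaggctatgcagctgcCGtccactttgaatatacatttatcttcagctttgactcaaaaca
Vpreb1 last exon, in all libraries: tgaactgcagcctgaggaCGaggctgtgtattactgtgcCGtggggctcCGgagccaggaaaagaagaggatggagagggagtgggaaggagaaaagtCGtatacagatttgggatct
The exonic stretch holds 4 CpG in 118 bases and the gained region 6 in 300. The exonic stretch lies within 1425 bases that align to *Vpreb2* at 96.6% identity, so reads from *Vpreb2* could have been placed on it. Its peaks are therefore uncertain.

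*Vpreb2* (ENSMUSG00000059280, chromosome 16, 17980428 to 17981273, plus strand) is a near copy of *Vpreb1*. Its window had 12 and 8 peaks in the wild-type against 8 and 11 in the HDAC7-deficient libraries, with 2044 and 1586 against 1508 and 2391 peak bases. The groups overlapped in both measures, and the ratio of peak bases was 1.07 ± 0.394 (SD, n = 2 per genotype; exact permutation p = 1). Without flanks the ratio of peak bases was 1.72, and that of peak number moved from 0.95 to 2.0. The genes share a stretch of 1425 aligned bases at 96.6% identity, so reads from either could have been placed on the other. Within it *Vpreb1* had 335, 954, 411 and 171 peak bases and *Vpreb2* had 317, 0, 0 and 552, in wild-type 1 and 2 and HDAC7-deficient 1 and 2. The library with the most on *Vpreb1* had none on *Vpreb2*, and the library with the least on *Vpreb1* had the most on *Vpreb2*. The values of each gene within this stretch are therefore uncertain.

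*Vpreb3* (ENSMUSG00000000903, chromosome 10, 75943057 to 75949657, plus strand) encodes a VpreB-related protein that associates with newly made immunoglobulin chains. It had 4159 and 3613 peak bases in the wild-type against 2822 and 3482 in the HDAC7-deficient libraries, a ratio of 0.811 ± 0.145 (SD, n = 2 per genotype; exact permutation p = 0.333). The groups were close, since the lower wild-type value exceeded the higher HDAC7-deficient value by less than the spread within either group, and the call was lost with peaks of at least 200 bp, with neighbouring peaks joined and after scaling per chromosome. Peak numbers overlapped, with 20 and 16 against 19 and 21. The exons were covered more densely than the introns in all 4 libraries, over 62.6%, 29.1%, 75.6% and 53.6% of their bases against 18.7%, 28.1%, 14.5% and 12%. The annotated start used here is the outermost edge of the gene. The RefSeq promoter window (chr10:75948050-75948349) lies inside the gene. It held 0, 0, 1 and 0 bases under peaks in wild-type 1 and 2 and HDAC7-deficient 1 and 2. The longest stretch under a peak in all 4 libraries was 205 bp, chr10:75941598-75941802, upstream of the outermost annotated start on the plus strand. It is given with each CpG in capitals because it was the longest common stretch of any of the 6 receptor genes. Soft-masked repeats made up 65.9% of its bases, and how reads from repeats were placed is not given in the sources used here.
Vpreb3 upstream stretch: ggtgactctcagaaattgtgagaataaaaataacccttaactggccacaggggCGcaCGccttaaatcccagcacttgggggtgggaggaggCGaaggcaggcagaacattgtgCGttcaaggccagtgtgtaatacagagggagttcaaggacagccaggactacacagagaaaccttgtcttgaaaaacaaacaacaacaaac
It holds 4 CpG in 205 bases.

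**Figure D3:**
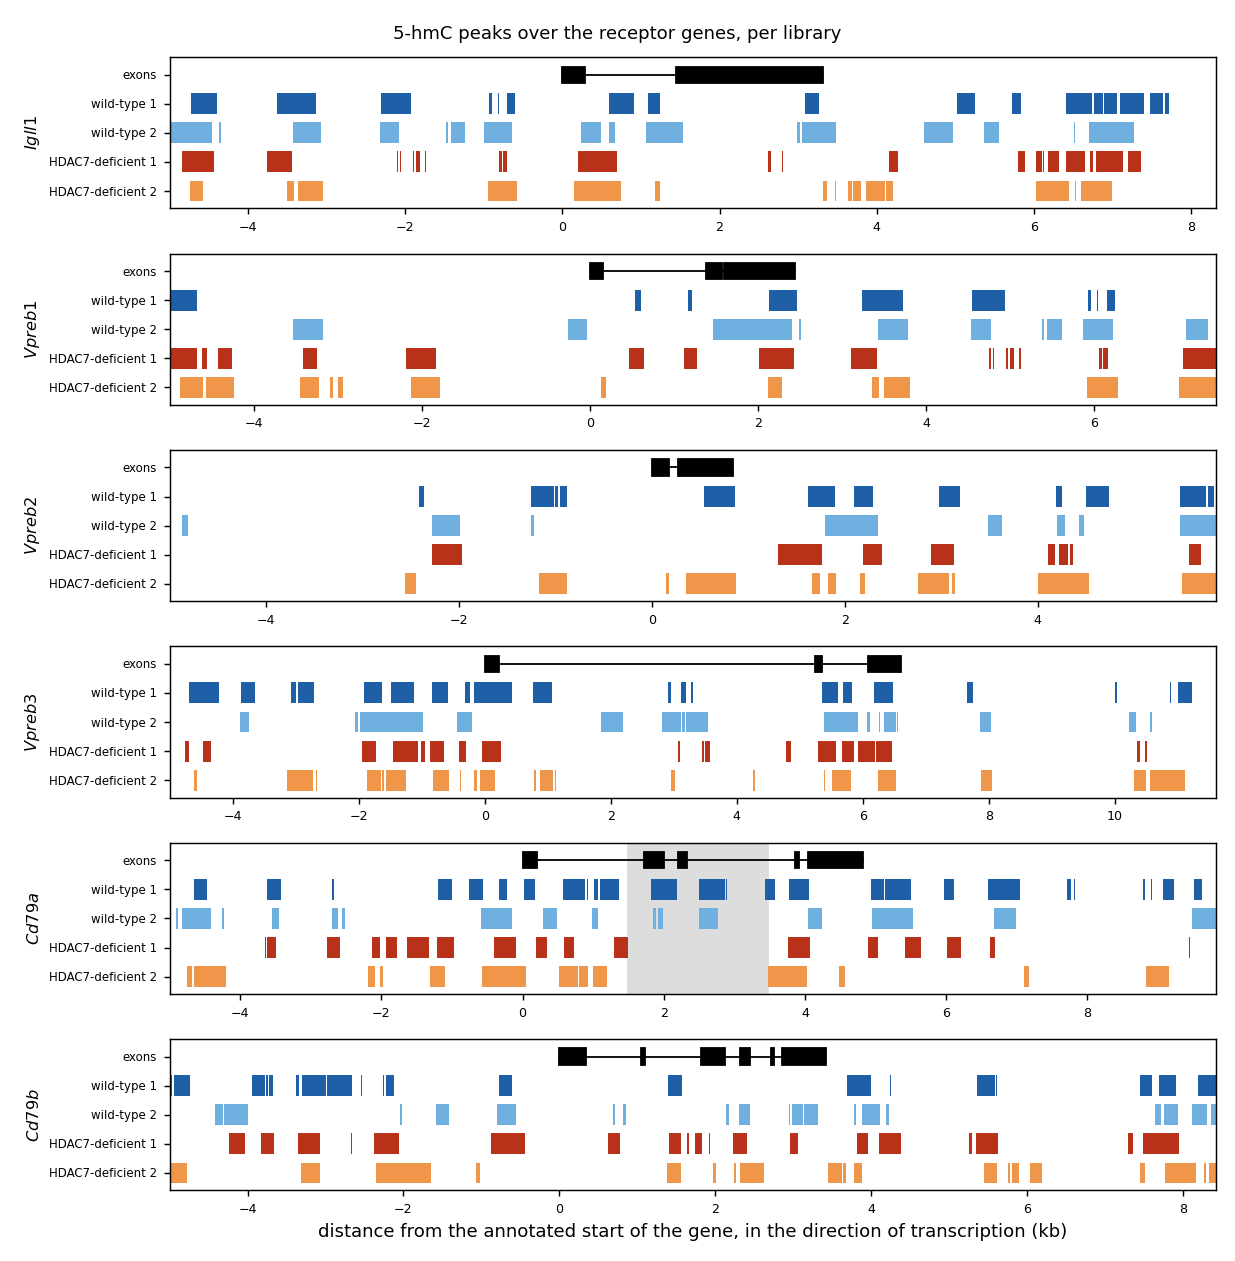
Positions of 5-hmC peaks in each library over the 6 receptor genes, in kb from the annotated start in the direction of transcription, with the exons of all annotated transcripts in black above. The shaded stretch of *Cd79a*, from 1489 to 3472 bp, holds 4 peaks of wild-type 1 and 3 of wild-type 2 and none of either HDAC7-deficient library.

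*Cd79a* (ENSMUSG00000003379, chromosome 7, 24897381 to 24902197, plus strand) encodes Igα and is the locus that carries the mb1-cre insertion in the HDAC7-deficient mice. Its window had 4418 and 3239 peak bases in the wild-type against 2888 and 3123 in the HDAC7-deficient libraries. Both HDAC7-deficient values were below both wild-type values, a ratio of 0.785 ± 0.176 (SD, n = 2 per genotype; exact permutation p = 0.333). The call was lost without flanks, with flanks of 2 kb and after scaling per chromosome. The difference was not spread evenly. The 5 kb upstream had 908 and 1133 peak bases in the wild-type against 1455 and 1457 in the HDAC7-deficient libraries, the exons 424 and 307 against 102 and 199, and the 5 kb downstream 1520 and 1237 against 642 and 391. None of these 3 parts overlapped between genotypes, and the upstream flank went the opposite way from the exons and the downstream flank. The introns overlapped, with 1566 and 562 against 689 and 1076 peak bases.

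Neither HDAC7-deficient library had a peak over 1984 bp inside the gene, chr7:24898870-24900853, from 1489 to 3472 bp after the start. This stretch was picked out after its values were seen. Wild-type 1 had 4 peaks over 790 bases of it (39.8%) and wild-type 2 had 3 peaks over 379 bases (19.1%). The longest peak-free run within the gene was 2275 and 2284 bp in the HDAC7-deficient libraries and 534 and 1279 bp in the wild-type libraries. The stretch holds exons 2 and 3. Exon 2, which encodes most of the immunoglobulin-like domain outside the cell, had 187 and 114 bases under peaks in the wild-type libraries and 0 in both HDAC7-deficient libraries, while exon 3 had none in any library.

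The stretch contains 2 regions here called lost, with a peak in both wild-type libraries and in neither HDAC7-deficient library. *Cd79a* was the only receptor gene with more than 1 lost region in its body, and 0.602% of the 2159 protein-coding genes of like length had at least 2. Those genes were not matched for coverage, in which *Cd79a* ranked at a mean percentile of 97.2. With a stretch picked after its values were seen, the share is no measure of chance. *Blnk*, a longer gene, had 3 lost regions in its body, where 50.4% of its like-length genes had at least 2. The central 300 bases of the 2 *Cd79a* regions are printed, 5′ to 3′ on the plus strand with each CpG in capitals, because this is where the groups differed inside the gene that carries the insertion. The exon 2 region spans chr7:24899202-24899562 (central bases chr7:24899232-24899531), of which 157 of the 300 bases are coding, and its widest peaks were 361 and 73 bp. The intronic region spans chr7:24899876-24900245 (central bases chr7:24899911-24900210), with widest peaks of 370 and 265 bp.
Cd79a exon 2 region: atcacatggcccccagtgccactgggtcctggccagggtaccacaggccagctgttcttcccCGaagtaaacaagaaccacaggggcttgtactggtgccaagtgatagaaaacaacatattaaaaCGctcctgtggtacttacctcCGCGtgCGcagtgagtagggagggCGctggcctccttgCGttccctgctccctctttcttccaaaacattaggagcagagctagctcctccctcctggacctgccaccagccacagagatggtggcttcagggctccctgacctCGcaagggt
Cd79a intronic region: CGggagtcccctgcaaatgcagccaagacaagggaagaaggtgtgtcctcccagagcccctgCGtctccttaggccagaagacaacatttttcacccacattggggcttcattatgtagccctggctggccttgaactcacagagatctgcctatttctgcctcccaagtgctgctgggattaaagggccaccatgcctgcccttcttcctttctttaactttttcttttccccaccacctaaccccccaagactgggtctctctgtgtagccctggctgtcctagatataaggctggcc
The exon 2 region holds 8 CpG in 300 bases and the intronic region 2. As background, the commonly used mb1-cre allele has Cre in place of exons 2 and 3 of *Cd79a* on the chromosome that carries it, and the structure of the allele in these mice is not given in the sources used here. The *Cd79a* insertion and the loss of HDAC7 cannot be told apart in this design, for any value within this window.

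Upstream of *Cd79a* the libraries shared a stretch of 112 bp under a peak in all 4, chr7:24897043-24897154, at -338 to -227 bp from the start. Soft-masked repeats made up 66.1% of that stretch. The RefSeq promoter window of the gene (250 bases before to 50 after the RefSeq start) held 149, 0, 35 and 183 bases under peaks in wild-type 1 and 2 and HDAC7-deficient 1 and 2. The groups overlapped there. The part of that window before the annotated exon is printed because *Cd79a* is a gene with peaks at its promoter in 3 of 4 libraries, with an E-box (CAGGTG) in capitals (RefSeq, GRCm38.p6, chr7:24897247-24897380, plus strand).
Cd79a promoter: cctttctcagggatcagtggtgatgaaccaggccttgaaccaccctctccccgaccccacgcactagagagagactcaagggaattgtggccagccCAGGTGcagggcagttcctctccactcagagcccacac
Of these 134 bases, 0 and 0 lay under peaks in the wild-type against 35 and 134 in the HDAC7-deficient libraries. A peak of wild-type 1 begins 17 bp after the start, just past these bases, so this split depends on the cut at the exon edge.

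*Cd79b* (ENSMUSG00000040592, chromosome 11, 106311341 to 106314762, minus strand) encodes Igβ, the partner of Igα. It had 2800 and 2203 peak bases in the wild-type against 3403 and 3095 in the HDAC7-deficient libraries. Both HDAC7-deficient values were above both wild-type values, a ratio of 1.30 ± 0.236 (SD, n = 2 per genotype; exact permutation p = 0.333). The gene was called higher in each alternative in which it was counted. The number of peaks was nearly constant, at 20 and 19 against 19 and 19, and the width of the peaks differed, on average 140 and 116 bp in wild-type against 179 and 163 bp in HDAC7-deficient cells within the window. With neighbouring peaks joined, the number was called higher (ratio 1.25). The introns held 176 and 108 peak bases against 509 and 392, without overlap, and the exons 0 and 440 against 209 and 159, with overlap. The window of *Cd79b* had no gained and no lost region among 33. The ratios of *Cd79a* and *Cd79b*, whose products form a pair, thus lay on opposite sides of 1, and the difference between the genes was not tested.

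*Lyn*, *Blk* and *Syk* are long genes whose coverage was nearer to that of other genes of their length. *Lyn* (ENSMUSG00000042228, chromosome 4, 3678115 to 3813122, plus strand), a Src-family kinase that starts and also restrains receptor signalling, had 17349 and 16972 peak bases in the wild-type against 13375 and 15792 in the HDAC7-deficient libraries. The wild-type values were close to each other and both above the HDAC7-deficient values, a ratio of 0.850 ± 0.1005 (SD, n = 2 per genotype; exact permutation p = 0.333). The call was lost with peaks of at least 200 bp alone. Its peak number overlapped, with 97 and 81 against 83 and 84. Coverage near the start was low, with 18, 219, 0 and 50 bases of the 2 kb around it under peaks in the 4 libraries, although these bases are CpG-rich at 4.85 CpG per 100 bp. The longest stretch under a peak in all 4 libraries was intronic, chr4:3703637-3703971 (335 bp). It is shown by its central 300 bases on the plus strand, with CpG in capitals, as the shared site of the largest of the genes.
Lyn shared site, chr4:3703654-3703953: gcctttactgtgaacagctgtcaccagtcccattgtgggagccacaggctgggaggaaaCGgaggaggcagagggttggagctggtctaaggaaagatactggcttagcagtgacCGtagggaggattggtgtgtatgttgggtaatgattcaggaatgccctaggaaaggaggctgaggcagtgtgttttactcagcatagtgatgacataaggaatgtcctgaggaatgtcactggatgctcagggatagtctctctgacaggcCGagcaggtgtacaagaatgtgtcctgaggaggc
The site has 3 CpG.

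*Blk* (ENSMUSG00000014453, chromosome 14, 63372836 to 63417037, minus strand), a Src-family kinase largely limited to the B lineage, had 29 and 35 peaks in the wild-type against 44 and 51 in the HDAC7-deficient libraries. The ratio was 1.48 ± 0.25 (SD, n = 2 per genotype; exact permutation p = 0.333). Peak bases overlapped, with 5904 and 6105 against 6056 and 7815, and HDAC7-deficient 2 alone stood above the others. The additional peaks were narrow. The mean width within the window was 204 and 174 bp in wild-type against 138 and 153 bp in HDAC7-deficient cells, and with peaks of at least 200 bp alone the ratio of peak number was 1.04. The exons of *Blk* held 16 and 36 peak bases in wild-type against 205 and 252 in HDAC7-deficient cells, of 2698 exonic bases, and the upstream flank 533 and 640 against 950 and 1005, both without overlap.

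*Syk* (ENSMUSG00000021457, chromosome 13, 52583173 to 52648792, plus strand) encodes the kinase that binds the phosphorylated Igα and Igβ chains. It had 71 and 41 peaks in the wild-type against 48 and 53 in the HDAC7-deficient libraries, and 11066 and 6543 against 8265 and 10056 peak bases. The 2 wild-type libraries were the highest and the lowest of the 4 by both measures, and the ratio of peak bases was 1.04 ± 0.404 (SD, n = 2 per genotype; exact permutation p = 1). A difference between genotypes smaller than this spread would not be visible. RefSeq lists a promoter at the start of the gene and another inside it. The internal promoter window (chr13:52596632-52596931) held 196 and 139 bases under peaks in wild-type against 78 and 0 in HDAC7-deficient cells. Its part before the RefSeq start and outside annotated exons, chr13:52596632-52596852 on the plus strand, is printed because its wild-type and HDAC7-deficient values did not overlap, and it was chosen after that was seen. The capitals mark an E-box.
Syk internal promoter: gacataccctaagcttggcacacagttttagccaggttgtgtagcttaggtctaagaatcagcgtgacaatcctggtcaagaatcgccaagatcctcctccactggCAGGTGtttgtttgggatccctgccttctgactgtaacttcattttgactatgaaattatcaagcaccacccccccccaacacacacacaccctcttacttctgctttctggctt
In these 221 bases 117 and 75 were under peaks in the wild-type libraries and 0 in both HDAC7-deficient libraries.

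*Blnk* (ENSMUSG00000061132, chromosome 19, 40928927 to 40994535, minus strand) encodes the scaffold that Syk phosphorylates and that brings Btk and phospholipase Cγ2 together. It had 75 and 62 peaks in the wild-type against 82 and 88 in the HDAC7-deficient libraries, a ratio of 1.24 ± 0.178 (SD, n = 2 per genotype; exact permutation p = 0.333). Peak bases were 14017 and 10748 against 13255 and 16206 and overlapped. HDAC7-deficient 2 was the highest and wild-type 2 the lowest by both measures. With peaks of at least 200 bp alone the direction of the peak number turned, to a ratio of 0.895, and the call was lost without flanks and with flanks of 2 kb. Near the start the order was the opposite of that over the window, with 1308 and 1128 bases of the 2 kb around it under peaks in wild-type against 620 and 703 in HDAC7-deficient cells, without overlap. The downstream flank went the other way, at 575 and 51 bases against 1282 and 760.

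**Figure D4:**
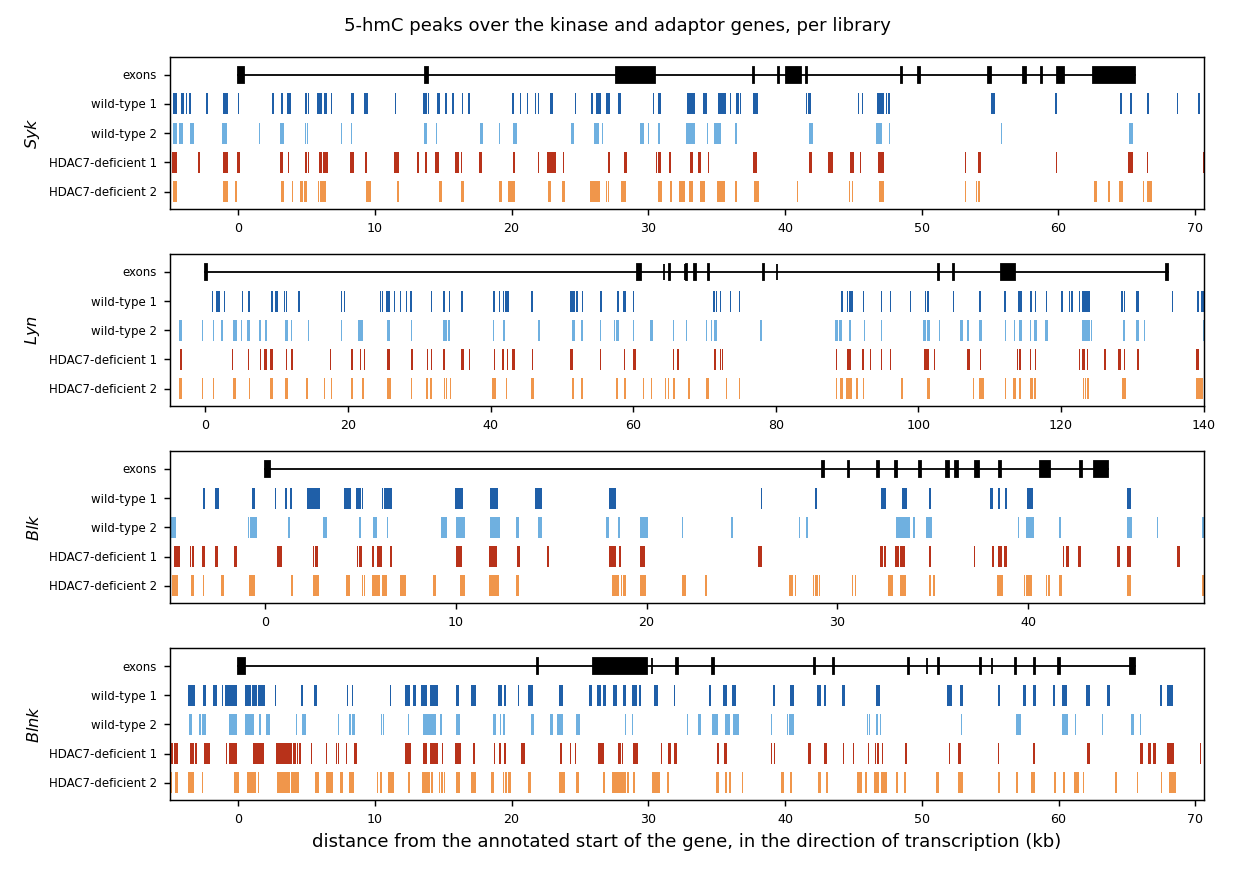
Positions of 5-hmC peaks in each library over the 3 kinase genes and *Blnk*, in kb from the annotated start in the direction of transcription, with the exons of all annotated transcripts in black above. *Blk* shows 29 and 35 peaks in the wild-type against 44 and 51 in the HDAC7-deficient libraries, and *Syk* shows the spread within the wild-type pair, 71 against 41.

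The window of *Blnk* held 4 gained and 3 lost regions, and the widest of each kind in the 10 windows was among them. The gained region spans chr19:40987559-40988116 (558 bp) in the intron between 6419 and 6976 bp after the start, with widest peaks of 90 bp in HDAC7-deficient 1 and 498 bp in HDAC7-deficient 2. The lost region spans chr19:40957936-40958397 (462 bp) in an intron, with widest peaks of 285 and 383 bp in the wild-type libraries. The longest stretch of *Blnk* under a peak in all 4 libraries was chr19:40980752-40981007 (256 bp), in an intron. The gained and the shared site are given on the minus strand, with CpG in capitals and the gained site by its central 300 bases (chr19:40987688-40987987). Those central bases lie under a peak of HDAC7-deficient 2 alone, since the peaks of HDAC7-deficient 1 in the region fall on either side of them. The shared site is set beside them as a site found in all libraries.
Blnk gained site: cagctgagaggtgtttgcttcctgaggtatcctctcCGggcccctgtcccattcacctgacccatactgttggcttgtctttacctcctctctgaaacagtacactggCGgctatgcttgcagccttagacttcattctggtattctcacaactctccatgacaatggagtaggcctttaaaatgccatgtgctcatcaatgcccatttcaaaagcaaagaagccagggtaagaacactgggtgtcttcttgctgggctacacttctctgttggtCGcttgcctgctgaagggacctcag
Blnk shared site: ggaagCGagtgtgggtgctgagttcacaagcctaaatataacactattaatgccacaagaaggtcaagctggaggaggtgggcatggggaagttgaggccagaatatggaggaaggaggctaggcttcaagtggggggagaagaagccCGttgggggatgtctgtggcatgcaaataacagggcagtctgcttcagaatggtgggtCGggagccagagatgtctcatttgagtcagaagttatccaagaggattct
Each of the sequences holds 3 CpG.

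Where peaks of any library touched they were joined, which gave 613 regions in the 10 windows. A peak of every library was present in 74 (12.1%), against 11.9% of the regions in the windows of all protein-coding genes. Regions gained in HDAC7-deficient cells numbered 13 (2.12%) against a background of 2.83%, and lost regions numbered 13 (2.12%) against 2.49%. The shares of the members were near those of all genes in each class. A total of 336 regions were found in 1 library alone. By bases, 141745 of the windows' bases were under a peak in at least 1 library, 5.43% of these in all 4 and 52.9% in 1 alone. *Syk* and *Blnk* had 4 gained regions each and *Igll1*, *Vpreb1*, *Cd79a*, *Lyn* and *Blk* had 1 each, while *Cd79a*, *Blnk* and *Syk* had 3 lost regions each, *Vpreb3* had 2, and *Lyn* and *Blk* had 1 each. The widest after those already given was a lost region of 366 bp in an intron of *Blk*, chr14:63402522-63402887. For the genes whose longest stretch under a peak in all 4 libraries is not given above, it was 251 bp upstream of *Syk* (chr13:52578423-52578673), 250 bp in *Blk* (chr14:63404987-63405236), 143 bp downstream of *Cd79b* (chr11:106306847-106306989) and 120 bp downstream of *Vpreb2* (chr16:17986002-17986121). Soft-masked repeats made up 92.4%, 8.4%, 77.6% and 60% of these stretches in the same order, so the peaks on those rich in repeats are uncertain.

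Peak bases in the windows held 1.25, 1.14, 1.25 and 1.15 CpG per 100 bp in wild-type 1 and 2 and HDAC7-deficient 1 and 2, and the rest of the windows 1.03, 1.06, 1.04 and 1.05. The ratio was above 1 in all 4 libraries, from 1.07 to 1.21. By gene the ratio was above 1 in all 4 libraries for *Igll1*, *Vpreb2*, *Blnk* and *Blk*. In the *Lyn* window it was 1.02 in wild-type 1 and 0.807, 0.806 and 0.821 in the others, so the bases under peaks were poorer in CpG than the rest in 3 of 4 libraries. Soft-masked repeats made up 24.2% to 30.4% of the peak bases and 24.7% to 25.7% of the rest.

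**Figure D5:**
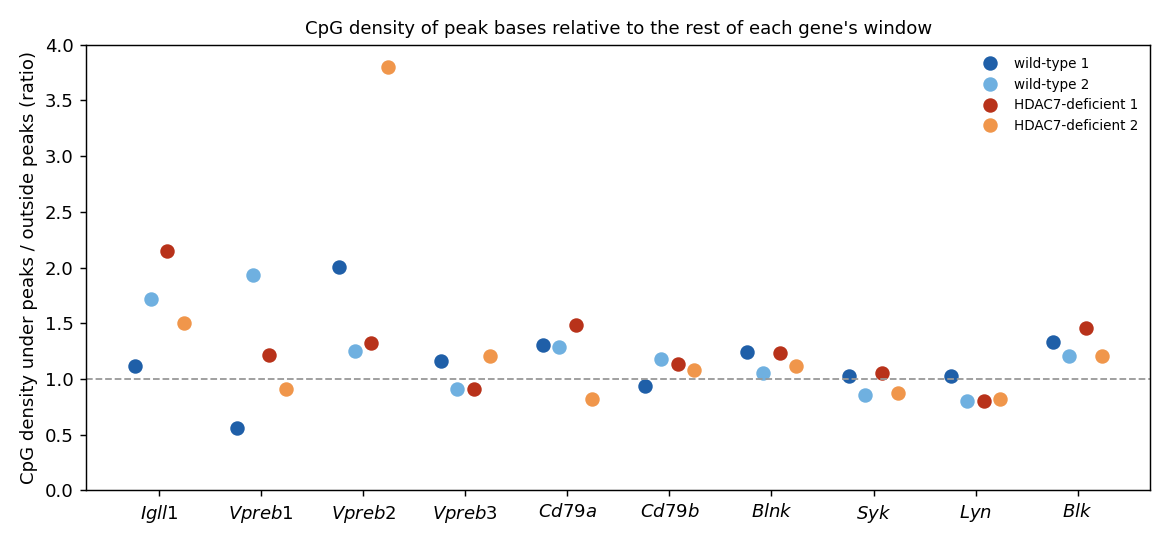
CpG density of the bases under peaks divided by that of the rest of each gene's window, with 1 point per library and a dashed line at 1, the value of equal density. The points of *Igll1*, *Vpreb2*, *Blnk* and *Blk* are all above 1, and the spread is widest in *Vpreb2*, where HDAC7-deficient 2 reaches 3.79.

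RefSeq promoter windows of 300 bases were at hand for *Blnk*, *Cd79a*, *Igll1*, *Vpreb1*, *Vpreb2*, *Vpreb3* and *Syk*, with 2 for *Syk* and 8 in all. *Cd79b*, *Lyn* and *Blk* had no entry. A peak met 3, 2, 4 and 3 of the 8 in wild-type 1 and 2 and HDAC7-deficient 1 and 2, where 22.4% to 25.4% of 32619 promoters met a peak. Motifs of factors of early B cells were searched on both strands. The E-box bound by E2A (CACCTG, or CAGGTG on the other strand) was in 7 of the 8, and in 20.2% of all promoters outside chromosome 18. The promoters of *Vpreb1* and *Vpreb2* are near copies and do not count as separate cases. The second E-box (CAGCTG) was in 3 of 8 and in 16.3% of all, the PU.1 motif (AGGAAGT) in 3 of 8 and 9.35%, and the RUNX motif (TGTGGT) in 2 of 8 and 16.8%. The EBF1 consensus, TCCC and GGGA with any 2 bases between them, was in none of the 8 and in 0.904% of all. None of these motifs contains another, and a match is a description of the letters alone.

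A list of 32 further genes, of co-receptors, kinases, adaptors, lipid enzymes and phosphatases around the receptor, was counted in the same way. By peak bases 3 of 32 (9.38%) were called higher in HDAC7-deficient cells, against the background of 10%, and 8 of 32 (25%) lower, against 17.1%. The median ratio was 0.933, against 0.967 over all protein-coding genes. The lowest ratios among those called were those of *Grb2*, an adaptor that links receptors to Ras, with 10735 and 9531 peak bases in wild-type against 7666 and 6779 in HDAC7-deficient cells, *Cd72*, an inhibitory co-receptor, with 4291 and 4346 against 2893 and 3289, and *Cbl*, a ubiquitin ligase, with 11373 and 11260 against 10159 and 8981. Their ratios were 0.713 ± 0.0861, 0.716 ± 0.0652 and 0.846 ± 0.0738 (SD, n = 2 per genotype; exact permutation p = 0.333 for each). The highest ratios among those called were 1.27 for *Dok3*, an adaptor that restrains the receptor, with 2728 and 2379 against 3344 and 3158, 1.11 for *Vav1*, a guanine nucleotide exchange factor, with 12431 and 11184 against 12452 and 13778, and 1.07 for *Inpp5d*, the phosphatase SHIP1, with 14488 and 14210 against 15687 and 15142. *Btk*, which Blnk recruits, lies on X. By peak number scaled to chromosomes 1 to 13, HDAC7-deficient 1 had 0.781 times the wild-type mean on X. HDAC7-deficient 2 had 1.62 times the mean of the other 3 libraries. Peak bases on X were 9747958 and 10921990 in the wild-type against 6858543 and 18838889 in the HDAC7-deficient libraries. The peak bases of *Btk* itself were 4740 and 3662 against 3459 and 6710. By peak number 2 of 32 (6.25%) were called higher, against the background of 12%, and 5 of 32 (15.6%) lower, against 10.8%.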

How the data were processed

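hMeDIP-seq was done on pro-B cells of 2 HDAC7-deficient and 2 wild-type (Hdac7 +/-) samples, and 4 input libraries were not analysed here. Per the study's methods, cutadapt 1.6 under Trim Galore 0.4.2 trimmed the reads, duplicates were removed, coverage was normalized with deepTools, peaks were called in each library separately with MACS2 bdgpeakcall, and peaks meeting an input peak were dropped, though whether before deposit is not stated. The aligner is Bowtie2 in the submitters' processing notes and bwa in the methods, and the build is mm10 (GRCm38) in the notes. The treatment of reads that map to near-identical genes or to repeats is not given in the sources used here. The deposited files hold peak start and end positions alone, with no height, score or read count, so neither depth nor counting error is known, and a threshold on coverage makes the number and width of peaks depend on depth.

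From these, peaks meeting each window by at least 1 bp and the peak bases inside it were counted per library (Python 3.11.15; NumPy 2.4.6; pandas 2.3.3). Windows were gene bodies of GENCODE M21 with 5 kb on each side. Like-length genes had a length within 25%. A call is the absence of overlap between the 2 genotypes, and each p comes from an exact two-sided permutation of the genotype labels, of which there are 6 assignments. The p-values measure only the spread between these libraries. Regions are peaks of the 4 lists joined where they share at least 1 bp. *Vpreb1* and *Vpreb2* were aligned with BLAST+ 2.17.0, sequences were read from GRCm38 with samtools 1.23.1, and promoters are those of RefSeq. Figures were drawn with matplotlib 3.10.9. The counting and the calls were checked on simulated peak lists.

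All 10 members and the 32 pathway genes, the motifs and the parts were chosen with earlier results of these data known. Of the other pathway genes, those named are the 3 with the largest ratio each way among those called by peak bases, plus *Btk*, which was named after its values were seen. Of the regions, those named are the longest stretch common to all 4 libraries in each window described and the 3 widest gained and lost, with the exceptions stated and except 1 gained region that is not reported here. Alternatives were other flanks, peaks of at least 200 bp, peaks within 100 bp joined, an overlap of 50% of the shorter peak, like length within 10% or on the same chromosome, scaling to 1 total per chromosome, leaving out each replicate, and a replicate block.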

Additional observations from a re-analysis of the deposited data

How the results depend on the processing

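The number of genes called higher by peak number, 3, was 1 without flanks (background 10.7%), 0 with peaks of at least 200 bp (6.22%) and 0 among the 5 members on chromosomes 4 to 13, and it ranged from 3 to 6 with each replicate left out. The number called lower, 0, was 1 without flanks (9.93%), 2 with peaks of at least 200 bp (12.7%) and 1 after scaling per chromosome (18%), and ranged from 0 to 5 with a replicate left out. By peak bases the number called higher, 1, was 2 with flanks of 10 kb (9.29%), 2 after scaling (13.2%) and 0 among the 5 members on chromosomes 14 to 19, and ranged from 1 to 4 with a replicate left out. The number called lower, 4, was 2 without flanks, with flanks of 2 kb, with peaks of at least 200 bp and after scaling (15.4% to 17.2%), and 1 on chromosomes 14 to 19, and ranged from 4 to 5 with a replicate left out. With 1 library left out, a lone library is set against a pair and the background rises too, to between 18.1% and 45.7%. Among these, 6 genes were higher by peak number without wild-type 1 (background 24.2%). By peak number 5 were lower without wild-type 2 (22.5%), and by peak bases 4 were higher without HDAC7-deficient 1 (34.4%). No background was counted for the members split by chromosome.

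The ratio of summed peak number, 1.06, turned below 1 with peaks of at least 200 bp (0.930) and on chromosomes 4 to 13 (0.922), against 1.29 on chromosomes 14 to 19, and ranged from 0.959 to 1.20 with a replicate left out. The ratio of summed peak bases, 1.00, was 0.982 without flanks, 0.978 with flanks of 2 kb, 0.919 with peaks of at least 200 bp, 0.988 after scaling and 0.916 on chromosomes 4 to 13, and ranged from 0.914 to 1.09 with a replicate left out. Apart from the 1.29 on chromosomes 14 to 19, none of these moves exceeded the SD of the ratio. The split by chromosome and the omission of olfactory receptor genes were chosen after the data were seen. Gained regions, 13 (2.12% of the regions), were 8 without flanks (1.75%) and 7 with peaks of at least 200 bp (2.76%). With an overlap of 50% of the shorter peak there were 41 gained regions, and lost regions, 13, were 23. The shares over all protein-coding genes were not counted for these alternatives, so the counts cannot be set against a background. The median percentile, 93.2, was 84.2 without flanks and 92.9 without olfactory receptor genes. Of the single genes that were called, the peak number of *Blnk* turned to a ratio of 0.895 with peaks of at least 200 bp. Of ratios that were not called, those of *Igll1* (peak number, 1.09 to 0.625), *Vpreb1* (peak bases, 1.14 to 0.708), *Vpreb2* (peak number, 0.95 to 2.0) and *Cd79b* (peak number, 0.974 to 1.38) crossed 1 without flanks. That of *Vpreb1* was also below 1 with flanks of 2 kb (0.832) and 10 kb (0.862). The cause of these shifts was not tested. The replicate numbers pair the samples by number alone, and with them as a block the ratios were 1.07 for peak number and 1.00 for peak bases. Peaks without heights limit every value: a difference in 5-hmC level inside a peak, or below the calling threshold, cannot be seen.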
